A study of Arabidopsis thaliana with 12 samples.

Results

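Seedlings of the Arabidopsis thaliana line labelled Atdoa10a/b RNAi 4-2 were compared with seedlings of Col-0, the wild-type accession, over all transcripts of the table deposited for this comparison. The comparison holds 6 of the 12 libraries of the series, 3 of each line, and 33685 transcripts, of which 32835 were matched to a RefSeq locus and 83 have no gene ID. Atdoa10a/b RNAi 4-2 is called the RNAi line here after its label. It carries a T-DNA insertion in AtDOA10A and, on top of it, a hairpin construct directed at AtDOA10B. The constructs of the study target exons 1 and 2, and its text does not say which of them this line's hairpin holds. The RNAi line is a single transgenic line. Effects of the T-DNA insertion, of the hairpin and of the site where the hairpin inserted therefore cannot be told apart. Both lines were grown upright on Murashige and Skoog plates, whole seedlings were pooled at 10 days of age, and poly(A) RNA was sequenced. Neither line received a treatment.

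AtDOA10A and AtDOA10B encode membrane-bound ubiquitin ligases. The genes described here are those whose products do other work. Seedlings keep a stock of transporters and conjugating enzymes that remove foreign or surplus compounds: cytochrome P450 enzymes oxidise them, glycosyltransferases, glutathione S-transferases and sulfotransferases attach a soluble group, and ABC (ATP-binding cassette) and MATE (multidrug and toxic compound extrusion) transporters move the products into the vacuole or out of the cell. Growth of the seedling rests on cell walls that yield to turgor, which expansins loosen and pectin-modifying enzymes and secreted peroxidases alter, and on uptake of mineral nutrients by the root.

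The deposited table gives 1 mean per line for each transcript. Since these means are averages of whole reads divided by 3 fixed size factors, the reads of each library were recovered from them, and values per library are printed as normalized counts, meaning reads divided by the size factor of the library. Libraries are numbered within a line by falling size factor, because they could not be matched to the replicate numbers of the labels. The solved genes hold 14015151 to 15679321 reads per library of the RNAi line. In Col-0 they hold 15239750 to 17271330. The first principal component, with 43.1% of the variance, separated the lines, and the second, with 25.5%, placed Col-0 libraries 2 and 3 at its opposite ends. Correlations of log2 values were 0.991 to 0.994 within the RNAi line, 0.986 to 0.993 within Col-0 and 0.981 to 0.988 between lines, across genes, which are not independent replicates. The methods of the study describe the libraries of a line as biological replicates of pooled seedlings, and p-values measure the spread between these pools.

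AtDOA10A (AT4G34100, named CER9 in the annotation) had 943, 789 and 789.9 normalized counts in libraries 1 to 3 of the RNAi line and 2385, 2157 and 2273 in Col-0. Its level fell, with a log2 fold change of -1.44 ± 0.08 (SE) and an adjusted p of 2.26e-05 by limma with Benjamini-Hochberg adjustment over all genes tested, and the lines did not overlap. AtDOA10B (AT4G32670), the target of the hairpin, had 496, 512 and 525 counts in the RNAi line and 299, 277 and 269 in Col-0, and rose (log2 fold change 0.86 ± 0.08, adjusted p = 0.000904). That rise goes against what the label of the line says of this gene. Reads were counted over the whole gene, and the hairpin holds sequence of its exon 1, exon 2 or both. Reads of the hairpin and of the gene therefore cannot be told apart. Both calls held when any of the 6 libraries was left out. Of the 10 tested genes around AtDOA10A, 5 on each side, 1 was called, UGT73B1 (log2 fold change 0.32 (adjusted p = 0.033), lost without RNAi library 1 (adjusted p = 0.124), RNAi library 2 (adjusted p = 0.196), Col-0 library 1 (adjusted p = 0.129) and Col-0 library 3 (adjusted p = 0.05)), and of the 10 around AtDOA10B none was called, with log2 fold changes from -0.40 to 0.27.

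**Figure D1:**
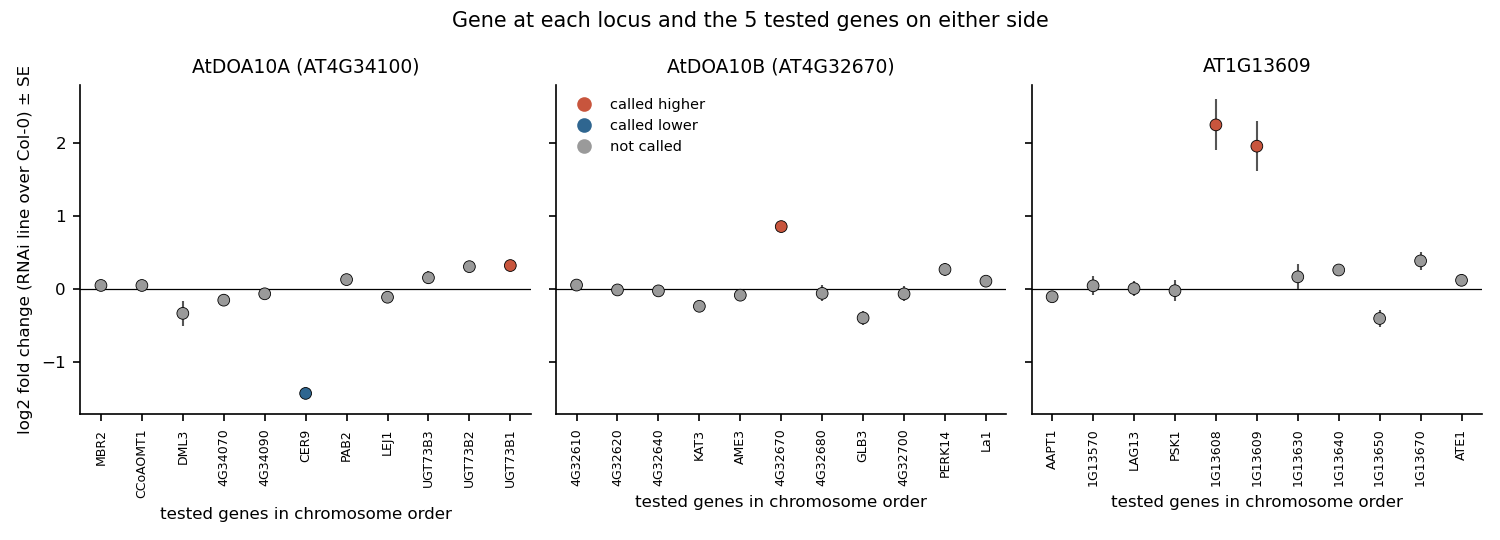
Log2 fold change (RNAi line over Col-0, vertical axis, error bars ± SE, 3 libraries per line) of AtDOA10A, AtDOA10B and AT1G13609, each with the 5 tested genes on either side in chromosome order. AtDOA10A stands at -1.44 and AtDOA10B at 0.86 among neighbours between -0.40 and 0.32, while AT1G13609 (1.96) has a called neighbour, AT1G13608 (2.26).

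Transcripts were tested where the mean over both lines reached 50 normalized counts. Of these 16962, 201 rose and 212 fell in the RNAi line at an adjusted p under 0.05, which is 1.19% and 1.25% of those tested (2.43% in either direction). A total of 3022 had an unadjusted p under 0.05. The median log2 fold change of all tested genes was 0.0019 and the median absolute log2 fold change of the called genes was 0.51. Among the called genes, 31 rose by a log2 fold change of at least 1 and 19 fell by at least as much. The lines did not overlap at any of the 413 called genes, against 22.9% of all tested genes. Each of the 413 kept its direction when any library was left out, but 61 kept their call in every such fit, 32 higher and 29 lower. The number of calls was lowest without RNAi library 2, with 33 genes higher and 36 lower, and highest without Col-0 library 2, with 273 higher and 275 lower. Without RNAi library 1 the calls were 79 higher and 82 lower, without RNAi library 3 they were 137 and 161, without Col-0 library 1 they were 74 and 65, and without Col-0 library 3 they were 160 and 172. Where a named call was lost in such fits, the libraries are given with the adjusted p reached without them or, for several calls, its highest value. Called genes lay on all 5 chromosomes, with 49 higher and 53 lower of 4425 tested on chromosome 1, 37 and 40 of 2575 on chromosome 2, 50 and 34 of 3390 on chromosome 3, 22 and 37 of 2579 on chromosome 4, and 43 and 48 of 3955 on chromosome 5.

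Transporters and enzymes of detoxification were among the genes that rose most firmly, but their families did not rise as a whole. AT2G04050, ABCC3, ABCB11, UGT74E2, UGT75B1, UGT74F2, GSTU9, CYP81D11, CYP81D8 and SOT12 had Col-0 library 2 highest and library 3 lowest of the line. Of all tested genes with reads in every library, 23.3% had this order. DTX1 and ABCB4 also had Col-0 library 2 highest, with library 1 lowest. ABCC10 and UGT88A1, which rose less, had Col-0 library 3 highest. The part of this order in the rises was not tested. AT2G04050, a MATE efflux transporter gene, had 210.1, 238 and 327 normalized counts in the RNAi line and 37.1, 50.5 and 28.6 in Col-0 (log2 fold change 2.72 ± 0.22, adjusted p = 0.000532). Every RNAi library was above every Col-0 library, and the call held without any library. DTX1, its neighbour on chromosome 2 and a plasma membrane efflux carrier of toxic compounds, had 129, 127 and 123 counts against 63.4, 77.7 and 68.4 (0.85 ± 0.14, adjusted p = 0.0122), and lost its call without RNAi library 1 (adjusted p = 0.0558), RNAi library 2 (adjusted p = 0.0811) and Col-0 library 1 (adjusted p = 0.0565). The coding sequences of the pair are 87.9% identical, so that part of their reads may be shared. Of 56 MATE genes, 53 had reads and 35 were tested: 2 rose (1.19% of all tested genes rose), none fell, and the median log2 fold change was -0.12, against 0.0019 over all tested genes.

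Of 130 genes of ABC proteins, a family of transporters with some soluble members, 120 had reads and 93 were tested. Among these, 4 rose and 5 fell, against 1.19% and 1.25% of all tested genes (median log2 fold change -0.053). ABCC3, which carries glutathione conjugates, had 2533, 2693 and 2866 counts in the RNAi line and 1430.1, 1443 and 1355 in Col-0 (0.93 ± 0.06, adjusted p = 0.000125), the smallest adjusted p of the family. ABCB11, of the P-glycoprotein group, had 1161, 1051 and 1081 against 484, 629.6 and 473 (1.06 ± 0.10, adjusted p = 0.00141). ABCB4, an auxin transporter of the root, had 3896, 3883 and 3762 against 2466, 2790.0 and 2556 (0.56 ± 0.06, adjusted p = 0.0025). The lines were apart at all 3 genes, and all 3 calls held without any library. ABCC10 rose less, by 0.37 (adjusted p = 0.0301), and lost its call without RNAi library 1 (adjusted p = 0.114), RNAi library 2 (adjusted p = 0.177) and Col-0 library 1 (adjusted p = 0.117). On the lower side, ABCI8, a plastid protein of iron-sulphur cluster assembly, had 1335, 1196 and 1410.2 counts in the RNAi line and 1898, 1929 and 1957 in Col-0 (-0.56 ± 0.07, adjusted p = 0.00395), a call that held without any library. ABCG6, a suberin-related transporter, ABCG19, ABCB15 and ABCF2 fell by log2 fold changes between -0.70 and -0.41, and each lost its call without RNAi library 2 (adjusted p from 0.0911 to 0.183) and Col-0 library 1. The calls on ABCG6 and ABCG19 were also lost without RNAi library 1, ABCG6 also without RNAi library 3 and Col-0 library 2, ABCB15 also without RNAi library 3 and Col-0 library 3, and ABCF2 in all 6 fits.

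Conjugating enzymes moved in both directions. Of 117 UDP-dependent glycosyltransferases, 110 had reads and 78 were tested, with a median log2 fold change of -0.028. The calls were 7 higher and 3 lower, against 1.19% and 1.25% of all tested genes. UGT74E2, which glucosylates the auxin precursor indole-3-butyric acid, had 1089, 1132 and 978 normalized counts in the RNAi line and 449, 699 and 432 in Col-0 (1.05 ± 0.16, adjusted p = 0.00913). Col-0 library 2 was the highest of its line but still below the RNAi libraries, and the call was lost without RNAi library 2 (adjusted p = 0.0725) and Col-0 library 1 (adjusted p = 0.0517). UGT75B1 had 188, 204 and 200.2 against 122, 126 and 119 (0.68 ± 0.10, adjusted p = 0.00959). The call on UGT75B1 was lost without RNAi library 2 (adjusted p = 0.0789). DOGT1, which acts on the fungal toxin deoxynivalenol, had 1316, 1421 and 1378 against 913, 1046 and 878 (0.54 ± 0.07, adjusted p = 0.0069), and its call was lost without RNAi library 2 (adjusted p = 0.0595). UGT74F2, which acts on salicylic acid, UGT74D1, UGT88A1 and UGT73B1 rose by log2 fold changes from 0.32 to 0.49, and all 4 lost their calls without RNAi libraries 1 and 2 and Col-0 library 1, with adjusted p up to 0.196, UGT73B1 also without Col-0 library 3. UGT74B1, of glucosinolate synthesis, UGT71C1 and AT5G53990 fell, with log2 fold changes of -0.36, -0.46 and -0.52. UGT71C1 lost its call in all 6 leave-one-out fits, AT5G53990 in all but that without Col-0 library 2 and UGT74B1 without RNAi libraries 1 and 2 and Col-0 libraries 1 and 3, with adjusted p up to 0.194. The flavonoid glucosyltransferase gene UF3GT was not called (-0.98 (adjusted p = 0.383)). Of 57 glutathione S-transferases, 56 had reads and 43 were tested, 1 higher and 2 lower, with a median of 0.0087. GSTU9 rose from 274, 386 and 248 counts in Col-0 to 557, 537 and 571 in the RNAi line (0.90 ± 0.14, adjusted p = 0.0111, lost without RNAi library 2 (adjusted p = 0.0704) and Col-0 library 1 (adjusted p = 0.0611)), while GSTF7 (-0.63 (adjusted p = 0.0144)) and GSTU20 (-0.50 (adjusted p = 0.0112)) fell and lost their calls without RNAi libraries 1 and 2 and Col-0 library 1 (adjusted p up to 0.0802 and 0.0638). SOT12, a sulfotransferase that accepts salicylic acid, had 699, 766 and 798 counts against 287, 369 and 260.3 (1.31 ± 0.12, adjusted p = 0.000904), with no overlap and a call that held without any library.

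Cytochrome P450 genes were called in both directions. Of 257 genes in the family, 225 had reads and 147 were tested, and 109 of the tested genes had a negative log2 fold change (median -0.11). Among these 147, 3 rose and 8 fell, against 1.19% and 1.25% of all tested genes. CYP81D11, a gene known to respond to foreign compounds, had 6839, 6735 and 6033 counts in the RNAi line and 3560.3, 4496 and 3393 in Col-0 (0.78 ± 0.10, adjusted p = 0.00455), and CYP81D8 had 236, 263 and 314 against 137, 186 and 113 (0.91 ± 0.17, adjusted p = 0.0252). The call on CYP81D8 was lost without RNAi library 1 (adjusted p = 0.055), RNAi library 2 (adjusted p = 0.128), RNAi library 3 (adjusted p = 0.0679) and Col-0 library 1 (adjusted p = 0.101). The 2 genes of the CYP71A group that feed indolic defence compounds went in opposite directions. CYP71A13, which makes indole-3-acetonitrile for camalexin, had 474, 577 and 502 counts against 235, 303 and 195 (1.098 ± 0.15, adjusted p = 0.0053), whereas CYP71A12 had 157, 142 and 143 against 525, 332 and 360.3 (-1.43 ± 0.15, adjusted p = 0.0025). CYP82C2, a hydroxylase of the indole carbonylnitrile branch, stood at 8.75, 7.92 and 20.8 counts in the RNAi line and 173, 119 and 72.5 in Col-0 (-3.22 ± 0.39, adjusted p = 0.00395). CYP71A13, CYP71A12, CYP82C2 and CYP81D11 kept their calls without any library. CYP71A12 and CYP71A13 are close relatives and may share reads. The annotated interval of CYP71A13 (chr2:13109909-13111988) also overlaps that of AT2G30766 (chr2:13107583-13110480), which rose as well (1.60). Reads of the shared stretch may not be separable. The other 6 that fell were CYP78A9 (-1.05), of organ growth, CYP79F1 (-0.81) and CYP83A1 (-0.46), of glucosinolate synthesis, CYP702A5 (-0.69), CYP89A9 (-0.64) and CYP77A6 (-0.55). Of these, CYP78A9 and CYP702A5 held without any library, while CYP79F1 was lost without Col-0 library 1 (adjusted p = 0.0517), CYP83A1 without RNAi library 1 (adjusted p = 0.0574) and Col-0 library 1 (adjusted p = 0.0623), and CYP89A9 and CYP77A6 in all 6 fits (adjusted p up to 0.159 and 0.218).

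**Figure D2:**
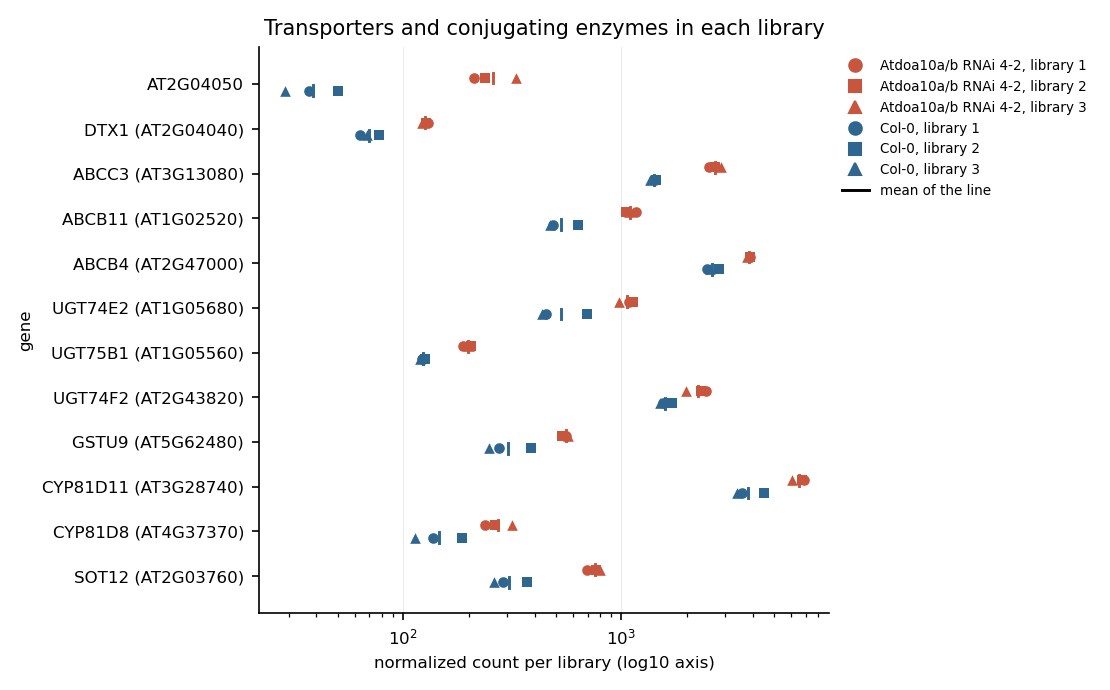
Normalized counts per library (log10 axis) of 12 called transporter and enzyme genes, with 3 libraries per line and a bar at the mean of each line. At ABCC3 the Col-0 libraries lie close together (1430.1, 1443 and 1355), while at UGT74E2, GSTU9 and CYP81D11 Col-0 library 2 is nearest to the RNAi libraries.

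The 5 genes of ribosomal protein L41, the shortest protein of the large ribosomal subunit, rose together. They lie on chromosomes 1, 2 and 3 and their coding sequences, 78 bases long in 2 exons, differ at 9 positions and share 70 to 77 bases between pairs (89.7% to 98.7% identity). They are printed from RefSeq (TAIR10.1) because they show how little separates the genes: capitals mark the 9 positions that differ among the 5, and the interval runs from the first to the last coding base, with the intron.
AT1G56045, chr1:20962686-20963268, plus strand: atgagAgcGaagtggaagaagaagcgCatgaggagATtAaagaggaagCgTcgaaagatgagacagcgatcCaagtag
AT2G40205, chr2:16792355-16792531, minus strand: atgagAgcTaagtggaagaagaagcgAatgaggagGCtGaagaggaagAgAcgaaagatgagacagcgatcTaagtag
AT3G08520, chr3:2586032-2586206, plus strand: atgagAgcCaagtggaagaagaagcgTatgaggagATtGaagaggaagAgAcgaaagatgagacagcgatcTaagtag
AT3G11120, chr3:3481128-3481304, plus strand: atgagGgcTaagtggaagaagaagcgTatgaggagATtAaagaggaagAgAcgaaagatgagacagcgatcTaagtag
AT3G56020, chr3:20790826-20791043, minus strand: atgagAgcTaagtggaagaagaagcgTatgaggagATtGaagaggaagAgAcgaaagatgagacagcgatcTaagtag

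AT1G56045 had 1422, 1749 and 1586 normalized counts in the RNAi line and 1097, 925 and 937 in Col-0 (0.68 ± 0.09, adjusted p = 0.0053). AT3G08520 had 1065, 1306 and 1049 against 765, 732 and 694 (0.64 ± 0.09, adjusted p = 0.0069). At both genes every RNAi library lay above every Col-0 library, and both calls held without any library. AT2G40205 had 333, 414 and 399 against 248, 208 and 214 (0.77 ± 0.11, adjusted p = 0.00808). AT3G11120 had 810.3, 983 and 1027 against 653, 546 and 499 (0.73 ± 0.11, adjusted p = 0.0108), and AT3G56020 had 556, 661 and 633 against 420.2, 336 and 375 (0.71 ± 0.10, adjusted p = 0.0069). Here too the lines were apart, but the 3 calls were lost without RNAi library 2, with adjusted p of 0.066, 0.0807 and 0.0588. All 5 members were thus called higher, against 1.19% of all tested genes, with a median log2 fold change of 0.71. Reads within the runs of bases that the genes share cannot be assigned to 1 of them, so the 5 values are not independent.

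Short genes had positive median log2 fold changes. Of 127 tested genes with a coding length of 101 to 200 bases, 15 rose (11.8%) and none fell, with a median log2 fold change of 0.13, and of 431 genes with 201 to 300 bases, 12 rose and 3 fell (median 0.084). Together these 558 genes had 27 higher and 3 lower calls, against 104 higher and 146 lower among 10961 genes with coding lengths over 900 bases (median -0.0085). Of the 7 tested genes of up to 100 bases, 5 are the L41 genes, and the other 2 had a median of 0.16 with no call. Genes annotated as ribosomal proteins had positive medians in each length class, 0.30 for 14 genes of 101 to 200 bases, with 3 higher, and between 0.14 and 0.22 in the longer classes. Libraries differed in the same way within a line: the median deviation of genes with 101 to 200 coding bases from the mean of the 6 libraries was -0.13 (log2) in Col-0 library 3 and -0.049 and -0.044 in Col-0 libraries 1 and 2, against 0.057 to 0.074 in the RNAi line. Among RNA that poly(A) selection should remove, the gene of 5.8S ribosomal RNA on chromosome 3 (AT3G41979) had 229, 222 and 219 counts in the RNAi line and 17.2, 17.2 and 25.5 in Col-0 (3.44 ± 0.18, adjusted p = 2.26e-05), with no overlap. It is a single gene chosen after its value was seen, and no list of such RNA was drawn up. Short genes and this ribosomal RNA were both higher in the RNAi line, but their orders within Col-0 differed. Col-0 library 3 was the lowest for genes of 101 to 200 bases and the highest for the ribosomal RNA. The L41 genes had median deviations of -0.19, -0.43 and -0.41 in Col-0 libraries 1 to 3. The part of gene length and of ribosomal RNA in the rise of the L41 genes was not tested.

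**Figure D3:**
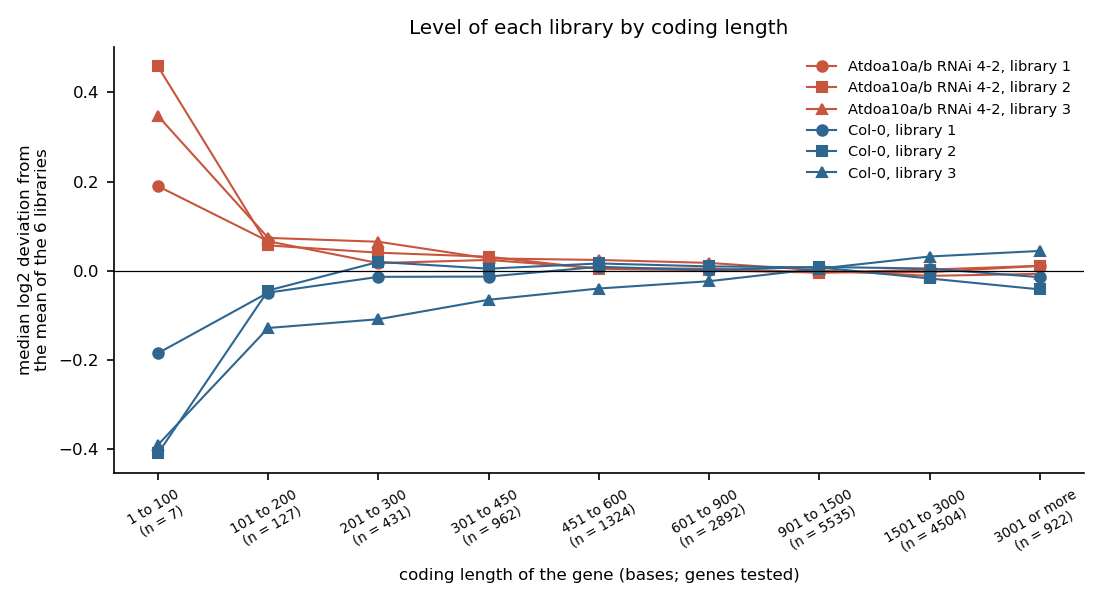
Median log2 deviation of each of the 6 libraries from their mean (vertical axis) by coding length in bases (horizontal axis, number of tested genes in brackets). For genes of 101 to 200 bases the RNAi libraries lie between 0.057 and 0.074 and the Col-0 libraries between -0.13 and -0.044, and the class of up to 100 bases holds 7 genes, 5 of them for ribosomal protein L41.

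Of 195 genes annotated as defensin-like or related small secreted peptides, 51 had reads and 9 were tested. Among these 9, 3 rose and 1 fell, against 1.19% and 1.25% of all tested genes (median log2 fold change -0.032). Defensins are cysteine-rich peptides held in shape by disulfide bonds, and many act against fungi. The 2 with the largest log2 fold changes lie beside another member on chromosome 1, and the coding sequences of the 3 are 57.2% to 68.9% identical. They are printed from RefSeq (TAIR10.1), with the codons of cysteine in capitals, to show the cysteines that set this family apart: AT1G13607 and AT1G13609 hold 8 each and AT1G13608 holds 4.
AT1G13607, chr1:4660778-4661098, plus strand: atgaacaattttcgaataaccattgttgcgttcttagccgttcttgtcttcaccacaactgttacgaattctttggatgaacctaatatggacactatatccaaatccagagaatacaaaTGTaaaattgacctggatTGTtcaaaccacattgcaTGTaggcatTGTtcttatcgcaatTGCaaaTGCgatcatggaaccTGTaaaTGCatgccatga
AT1G13608, chr1:4661682-4662029, plus strand: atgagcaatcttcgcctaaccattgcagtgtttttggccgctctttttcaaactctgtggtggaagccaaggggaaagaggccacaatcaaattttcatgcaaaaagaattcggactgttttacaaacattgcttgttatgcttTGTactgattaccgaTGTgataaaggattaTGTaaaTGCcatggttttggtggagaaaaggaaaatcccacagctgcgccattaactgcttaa
AT1G13609, chr1:4662818-4663146, plus strand: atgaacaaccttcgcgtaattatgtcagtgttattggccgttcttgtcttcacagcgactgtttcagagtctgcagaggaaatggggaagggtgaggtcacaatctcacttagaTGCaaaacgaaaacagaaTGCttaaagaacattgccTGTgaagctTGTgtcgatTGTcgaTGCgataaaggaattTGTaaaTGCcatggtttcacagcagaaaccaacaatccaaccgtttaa

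In the RNAi line AT1G13609 had 3469, 4846 and 4294 normalized counts, and in Col-0 1026, 2055 and 577 (1.96 ± 0.35, adjusted p = 0.0189). AT1G13608 had 104, 108 and 85.3 against 22.6, 33.3 and 10.2 (2.26 ± 0.35, adjusted p = 0.0108). The Col-0 libraries were spread more widely than the RNAi libraries, Col-0 library 3 being the lowest and Col-0 library 2 the highest of its line at each gene, yet no RNAi library was as low as any Col-0 library. The call on AT1G13609 was lost without RNAi library 1 (adjusted p = 0.052), RNAi library 2 (adjusted p = 0.118) and Col-0 library 1 (adjusted p = 0.0837), and that on AT1G13608 without RNAi library 1 (adjusted p = 0.0516) and RNAi library 2 (adjusted p = 0.081). AT1G13607, under the filter and not tested, had 26.3, 31.7 and 15.3 counts against 7.25, 6.05 and 4.08. The other genes within 5 tested places of AT1G13609 had log2 fold changes from -0.41 to 0.38 and no call. Elsewhere, AT3G05730 rose (5306, 5615 and 4685 against 3851, 2648 and 3279 counts, 0.69 ± 0.12, adjusted p = 0.0186, lost without RNAi library 1 (adjusted p = 0.0753) and RNAi library 2 (adjusted p = 0.12)) and AT4G22212 fell (-0.59 (adjusted p = 0.0379), lost in every leave-one-out fit but that without RNAi library 1, with adjusted p up to 0.198).

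By the rule for named genes, the 12 largest rises and falls were taken among genes averaging 1000 normalized counts or more. To these came the 8 largest of each among genes with 200 to 1000. Of the 20 rises 19 were called, and of the 20 falls all 20. No list of iron genes was drawn up, and the following are single genes of that rule. BTS, a ligase that limits the response to iron deficiency, had 9286, 11017 and 10639 counts in the RNAi line and 4340.1, 6597 and 3319 in Col-0 (1.17 ± 0.19, adjusted p = 0.0144). The transcription factor gene bHLH39 had 1615, 1905 and 1517 against 604, 879 and 374 (1.52 ± 0.24, adjusted p = 0.0112). ZIF1, which loads nicotianamine into the vacuole, had 1902, 2525 and 2218 against 1012, 1351 and 822 (1.08 ± 0.16, adjusted p = 0.00857). In all 3 genes Col-0 library 2 was the highest and library 3 the lowest of the wild type. The calls were lost without RNAi library 2 (adjusted p = 0.102, 0.084 and 0.0675), and those of BTS and bHLH39 also without Col-0 library 1 (adjusted p = 0.0725 and 0.054). bHLH38 (1.45), BHLH100 (2.07), the IRON MAN peptide genes AT1G47395 (2.15) and AT1G47400 (2.03), OPT3 (0.77), ORG1 (0.94), AT2G14247 (1.85) and AT5G05250 (0.93) rose as well, and AT1G47395 kept its call without any library while the other 7 lost it without RNAi library 2 (adjusted p from 0.116 to 0.201) and Col-0 library 1, all of these but ORG1 also without RNAi library 3, all but ORG1 and OPT3 also without RNAi library 1, and AT5G05250 also without Col-0 library 3.

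The order of the Col-0 libraries recurred across the rises. Of the 20 largest rises, 18 (90%) had Col-0 library 2 above library 1 above library 3, an order found in 23.3% of the 16961 tested genes with reads in every library and in 4 of the 20 largest falls. With reads in every library, 25 of 30 genes (83.3%) called higher by a log2 fold change of at least 1 had this order. Among 19 genes called lower by at least as much, 2 had it. The median ratio of the highest to the lowest Col-0 library was 2.116 in the rises, 1.31 in the falls and 1.16 over all tested genes. ATSDI1, the rise that was not called, is a gene induced by sulphur deficiency: it had 561, 833 and 2700.0 counts in the RNAi line and 444, 1404 and 276 in Col-0 (0.96 ± 0.61, adjusted p = 0.456), and the lines overlapped. The order of the Col-0 libraries thus moved with the genes that rose most, and its part in the difference between lines was not tested. Some large rises kept their call without any library. AT2G21640, annotated as a marker of oxidative stress, had 386, 387 and 474 counts against 42.6, 90.8 and 60.2 (2.73 ± 0.23, adjusted p = 0.000532). CDI, a nucleotide-diphospho-sugar transferase gene, had 1633, 1759 and 1690.2 against 958, 1096 and 829.8 (0.83 ± 0.09, adjusted p = 0.00282). AT2G41730 (2.27) and AT2G18193 (1.95) were likewise called in every fit.

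Among the 20 largest falls, ASPGB1, an asparaginase that releases ammonium from asparagine, had 197, 212 and 238 normalized counts in the RNAi line and 425, 533 and 425 in Col-0 (-1.09 ± 0.11, adjusted p = 0.00216). AK3, an aspartate kinase that opens the path to lysine, threonine and methionine, had 1187, 1281 and 1092 against 1906, 1744 and 2064 (-0.68 ± 0.08, adjusted p = 0.00352). P5CS1, which makes the precursor of proline, had 881, 935 and 1248 against 1973, 3060.4 and 2555 (-1.30 ± 0.16, adjusted p = 0.00395). At all 3 genes each RNAi library lay below each Col-0 library, and the calls held without any library. HEMA1, the glutamyl-tRNA reductase at the start of tetrapyrrole synthesis, had 4326, 3737 and 4266 counts against 6710.2, 6166 and 8466 (-0.78 ± 0.11, adjusted p = 0.0069). The call on HEMA1 was lost without RNAi library 2 (adjusted p = 0.0588). EBP, an ethylene response factor gene, had 3098, 2757 and 3491 against 5948, 6198 and 4682 (-0.84 ± 0.11, adjusted p = 0.0053) and held without any library. The uncharacterized genes AT5G26270 (246, 174 and 201 against 526, 575 and 600.1, -1.46 ± 0.12, adjusted p = 0.000532) and AT1G20070 (185, 192 and 212 against 432, 352 and 458, -1.07 ± 0.11, adjusted p = 0.00217) also fell in every leave-one-out fit. Of the remaining falls, the aquaporin genes TIP2;2 (-0.83) and RD28 (-0.81) and NEET (-1.73), of an iron-sulphur protein, held without any library, BGLU18 (-1.30) and PEL3 (-0.88) were lost without RNAi library 2 (adjusted p = 0.0725 and 0.0588), AT4G15390 (-0.66) without RNAi library 1 (adjusted p = 0.052) and RNAi library 2 (adjusted p = 0.0804), the wax gene CER1 (-1.06) without RNAi library 1 (adjusted p = 0.104), RNAi library 2 (adjusted p = 0.157) and Col-0 library 3 (adjusted p = 0.0613), and the germin-like gene GLP9 (-1.04) without RNAi library 2 (adjusted p = 0.116), RNAi library 3 (adjusted p = 0.0562) and Col-0 library 1 (adjusted p = 0.0999).

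Called expansin genes were lower in the RNAi line, while the other wall families below had calls in both directions or few calls. Of 35 expansin genes, 27 had reads and 19 were tested: none rose, 5 fell (1.25% of all tested genes fell), 14 of 19 log2 fold changes were negative and the median was -0.22. EXPA8 had 500.0, 524 and 489 normalized counts in the RNAi line and 1027, 815 and 1221 in Col-0 (-0.997 ± 0.12, adjusted p = 0.00395), with no overlap and a call that held without any library. EXPA1 had 2857, 2762 and 2418 against 4586, 3346 and 5354 (-0.70 ± 0.14, adjusted p = 0.0324) and EXPB3 had 1340.4, 1320.4 and 1302 against 1727, 1781 and 2176 (-0.51 ± 0.08, adjusted p = 0.0139). EXPB1 and EXPA11 fell as well, with log2 fold changes of -1.02 (adjusted p = 0.0324) and -0.49 (adjusted p = 0.0381). The last 4 calls were lost without RNAi library 2 (adjusted p from 0.0892 to 0.188), EXPB3 and EXPA11 also without RNAi library 1 (adjusted p = 0.052 at each), EXPA1 without all libraries but Col-0 library 2, EXPB1 without Col-0 libraries 1 and 3, and EXPA11 without RNAi library 3 and Col-0 library 1. Summed over the expansins, the RNAi libraries ranged from 13400.5 to 14225 counts. The Col-0 libraries ranged from 15764 to 20090.5.

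Pectin-modifying enzymes and their inhibitors, with 250 genes of which 169 had reads and 89 were tested, had 1 member higher and 9 lower (median -0.072). The shares over all tested genes were 1.19% higher and 1.25% lower. AT5G63180, a pectate lyase-like gene, had 727, 799 and 850.0 counts in the RNAi line and 1259.8, 1130.1 and 1164 in Col-0 (-0.58 ± 0.07, adjusted p = 0.0046) and held without any library. PME5, a pectin methylesterase whose action makes walls more extensible in the shoot tip, had 318, 345 and 340.2 against 469, 629.6 and 647 (-0.78 ± 0.12, adjusted p = 0.00913). The call on PME5 was lost without RNAi library 2 (adjusted p = 0.0588). AT1G48100 had 181, 155 and 172 against 264, 281 and 368 (-0.83 ± 0.13, adjusted p = 0.0125). The call on AT1G48100 was lost without RNAi library 2 (adjusted p = 0.0845). The other 6 that fell, AT5G55720 (-1.04), AT1G67750 (-0.55), AT5G04960 (-0.50), AT4G24780 (-0.40), AT1G02810 (-0.36) and PMEPCRF (-0.33), lost their calls without RNAi library 2 (adjusted p from 0.106 to 0.198) and RNAi library 1, all but AT1G67750 also without Col-0 library 1, AT4G24780 and AT1G02810 also without RNAi library 3, AT1G02810 also without Col-0 library 2, and AT5G55720 in all 6 fits. The pectin acetylesterase gene AT4G19410 rose, from 2062, 1943 and 2005 to 2749, 2858 and 2534 counts (0.44 ± 0.06, adjusted p = 0.0078). The call on AT4G19410 was lost without RNAi library 2 (adjusted p = 0.0675).

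Class III peroxidases, secreted enzymes that cross-link or loosen wall polymers, had negative log2 fold changes in most tested members, with few calls. Of 69 genes, 66 had reads and 45 were tested, with 41 negative log2 fold changes and a median of -0.20. None was higher and 3 were lower, against 1.19% and 1.25% of all tested genes. AT2G38390 had 594, 447 and 452 counts in the RNAi line and 965, 895 and 1002 in Col-0 (-0.95 ± 0.11, adjusted p = 0.00294) and held without any library, and AT2G38380, its neighbour, had 1654, 1341 and 1540.4 against 2186, 2449.9 and 2124 (-0.58 ± 0.09, adjusted p = 0.00891). The call on AT2G38380 was lost without RNAi library 2 (adjusted p = 0.052). The coding sequences of the pair are 90.6% identical, so that reads may be shared. PRXR1 had 14225, 15517 and 17277 against 20070.1, 21728 and 20229 (-0.40 ± 0.08, adjusted p = 0.0323). The call on PRXR1 was lost without RNAi library 1 (adjusted p = 0.129), RNAi library 2 (adjusted p = 0.19), Col-0 library 1 (adjusted p = 0.102) and Col-0 library 3 (adjusted p = 0.0513). Summed counts ranged from 51571.5 to 55445 across RNAi libraries. Across Col-0 libraries they ranged from 60735 to 71949.9. Of 25 tested xyloglucan endotransglucosylases (33 genes, 30 with reads), which cut and rejoin hemicellulose, EXGT-A3 rose (0.34 (adjusted p = 0.0178)) and XTH31 fell (-0.50 (adjusted p = 0.0146)), with a median of 0.016, and both calls were lost without RNAi libraries 1 and 2 (adjusted p up to 0.118 and 0.0969). Of 58 tested extensins and arabinogalactan proteins (85 genes, 76 with reads), AGP12 rose (0.29 (adjusted p = 0.0483)) and EXT4 fell (-0.39 (adjusted p = 0.0396)), with a median of -0.050, and the call on AGP12 was lost in all 6 leave-one-out fits and that on EXT4 without RNAi library 1, 2 or 3 or Col-0 library 1 (adjusted p up to 0.246 and 0.217).

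**Figure D4:**
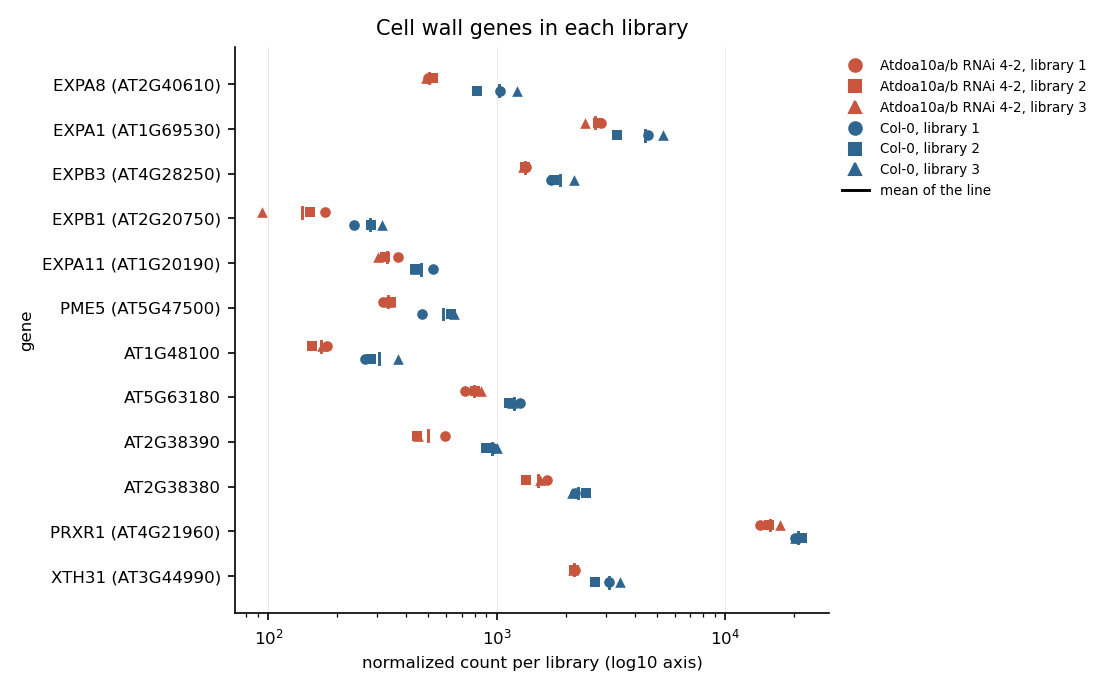
Normalized counts per library (log10 axis) of 12 cell wall genes called lower, with 3 libraries per line and a bar at the mean of each line. The RNAi libraries lie below the Col-0 libraries at every gene shown, which follows from the choice, since the lines overlapped at no called gene. At EXPA8 the values are 500.0, 524 and 489 against 1027, 815 and 1221.

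All called genes of the 3 nutrient lists fell. ZIF1 (zinc induced facilitator 1), named above with the iron genes and called higher (1.08), is in none of these lists. Over all tested genes 1.25% fell and 1.19% rose. Of 26 genes of nitrate and ammonium uptake and assimilation, 24 had reads and 15 were tested, and 4 of them fell with none higher (median log2 fold change -0.22). AMT1;3, an ammonium transporter of the root, had 882, 745 and 700.2 normalized counts in the RNAi line and 1065, 1034 and 1193 in Col-0 (-0.50 ± 0.09, adjusted p = 0.0219). AMT1;2 (-0.26 (adjusted p = 0.0368)) and the nitrate transporter genes AT2G26690, known as NRT1.4 (-0.35 (adjusted p = 0.0184)), and AT3G21670, known as NRT1.3 (-0.28 (adjusted p = 0.0316)), fell too. The lines were apart at these 4 genes, and each call was lost without RNAi library 2 (adjusted p from 0.107 to 0.216) and Col-0 library 1, AMT1;2, NRT1.3 and NRT1.4 also without RNAi library 1, and AMT1;3, AMT1;2 and NRT1.3 also without RNAi library 3 and Col-0 library 3. Of 30 genes of phosphate starvation and uptake, 28 had reads and 19 were tested, with none higher and 2 lower (median -0.10). They are the root phosphate transporters PHT1;1, with 2809, 2329 and 2573 against 3544, 4204 and 3775 counts (-0.58 ± 0.08, adjusted p = 0.00817, lost without RNAi library 2 (adjusted p = 0.0592)), and PHT1;4 (-0.52 (adjusted p = 0.0394)). The call on PHT1;4 was lost without RNAi library 1 (adjusted p = 0.137), RNAi library 2 (adjusted p = 0.211), Col-0 library 1 (adjusted p = 0.0744) and Col-0 library 3 (adjusted p = 0.0531). All 26 genes of boron, zinc and copper homeostasis had reads and 21 were tested, with none higher and 3 lower (median -0.16). ZIP3, a zinc transporter, had 101, 77.3 and 95.2 against 186, 176 and 205 (-1.05 ± 0.14, adjusted p = 0.00485) and held without any library. The boron exporter gene AT3G62270, known as BOR2, had 1559, 1519.5 and 1960.5 against 2267, 2724 and 2495 (-0.58 ± 0.10, adjusted p = 0.0186, lost without RNAi library 1 (adjusted p = 0.0797) and RNAi library 2 (adjusted p = 0.118)), and NIP5;1, the boric acid channel, fell by 0.38 on the log2 scale (adjusted p = 0.0271, lost without RNAi libraries 2 and 3 and Col-0 libraries 1 and 3, with adjusted p up to 0.15). The boron transporter gene BOR4 was not called (-0.78 (adjusted p = 0.0583)).

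Marker genes of cell types were read beside these groups, since in pooled seedlings fewer cells of a type and less RNA per cell cannot be told apart. Of 15 guard cell markers, all had reads and 12 were tested. None rose, 2 fell (1.25% of all tested genes fell), 11 had negative log2 fold changes and the median was -0.31. The lines did not overlap at 6 genes, all lower (10.9% of all tested genes were lower without overlap). MPK12, a protein kinase gene of guard cells, had 180.0, 174 and 209 normalized counts in the RNAi line and 302, 294 and 279.7 in Col-0 (-0.64 ± 0.10, adjusted p = 0.0115). The call on MPK12 was lost without RNAi library 1 (adjusted p = 0.052), RNAi library 2 (adjusted p = 0.0804) and Col-0 library 1 (adjusted p = 0.0618). KAT1, the inward potassium channel, had 263, 289 and 357 against 429, 425 and 416 (-0.49 ± 0.11, adjusted p = 0.0451, lost in every leave-one-out fit but that without RNAi library 3, with adjusted p up to 0.218). The summed guard cell markers ranged from 6120.3 to 7156 counts across RNAi libraries. Across Col-0 libraries they ranged from 7392 to 8343. None of 10 tested markers of root endodermis and suberin (median -0.16, summed counts 3766 to 4863 against 4498 to 5353) and none of 7 tested markers of xylem and phloem (median -0.11, 4564 to 4722 against 4880 to 5402) was called. The 6 root tip markers were under the filter, with sums between 62.4 and 124 across RNAi libraries and between 38.8 and 76.7 across Col-0 libraries. The part of cell composition in the falls of cell wall and transporter genes was not tested.

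Of 22 genes of the DNA damage response, all had reads and 18 were tested (median 8.50e-05). The calls were 2 higher and none lower, against 1.19% and 1.25% of all tested genes. GMI1, a gene of homologous recombination that is induced by irradiation and mitomycin C, had 169, 203 and 235 normalized counts in the RNAi line and 86.0, 90.8 and 78.6 in Col-0 (1.23 ± 0.14, adjusted p = 0.00325), with no overlap between lines, and kept its call without any library. TSO2, the small subunit of ribonucleotide reductase, had 1669, 1887 and 1663 against 1408, 1240.1 and 1352 (0.38 ± 0.07, adjusted p = 0.0248). The call on TSO2 was lost without RNAi library 1 (adjusted p = 0.0673), RNAi library 2 (adjusted p = 0.143) and Col-0 library 1 (adjusted p = 0.0615). The other tested members were not called.

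In 4 further groups 1 or 2 members were called, which is 6.25% of the tested genes of reactive oxygen removal and of the jacalin-type lectins and 12.5% of the EXO70 genes and of the berberine bridge enzyme-like oxidases, against 2.43% of all tested genes. Of 34 genes of reactive oxygen removal, all had reads and 32 were tested, with none higher and 2 lower (median -0.026), CAT3, a catalase gene, with 4471, 4492 and 5534 against 6967, 7068 and 6856 counts (-0.53 ± 0.08, adjusted p = 0.0108, lost without RNAi library 1 (adjusted p = 0.052), RNAi library 2 (adjusted p = 0.088) and Col-0 library 1 (adjusted p = 0.0573)), and CSD2, of the plastid copper/zinc superoxide dismutase (-0.33 (adjusted p = 0.0312), lost in every leave-one-out fit but that without Col-0 library 2, with adjusted p up to 0.165). Of 23 EXO70 genes, subunits of the exocyst that tethers secretory vesicles, 22 had reads and 16 were tested, with 2 lower and 15 negative log2 fold changes (median -0.15). EXO70H1 had 138, 94.1 and 93.0 against 196, 189.7 and 184 counts (-0.83 ± 0.16, adjusted p = 0.0248, lost without RNAi library 2 (adjusted p = 0.14), RNAi library 3 (adjusted p = 0.0608) and Col-0 library 1 (adjusted p = 0.103)), and EXO70H2 fell as well (-0.57 (adjusted p = 0.0325), lost without RNAi libraries 2 and 3 and Col-0 libraries 1 and 3, with adjusted p up to 0.15). Of 27 berberine bridge enzyme-like oxidases, 26 had reads and 16 were tested, with 2 lower (median -0.13). AT1G26390 stood at 29.2, 9.91 and 21.9 counts in the RNAi line and 222, 204 and 115 in Col-0 (-3.15 ± 0.36, adjusted p = 0.00325, held without any library), and AT1G30730 fell too (-0.82 (adjusted p = 0.0379), lost without RNAi libraries 1 and 2 and Col-0 libraries 1 and 2, with adjusted p up to 0.143). Among 16 tested jacalin-type lectins (43 genes, 37 with reads, median -0.077), AT1G33790 rose from 123, 99.9 and 114 to 219, 218 and 201 counts (0.92 ± 0.12, adjusted p = 0.00455) and held without any library.

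The calls below stand beside 1.19% of all tested genes higher and 1.25% lower. Genes annotated to the superfamily of lipid transfer proteins and seed albumins (129 genes, 83 with reads, 54 tested) had 3 lower and none higher (median -0.060): AT4G12490 (-0.96 (adjusted p = 0.0249)), AT4G22610 (-0.60 (adjusted p = 0.0461)) and AT1G62510 (-0.40 (adjusted p = 0.00959)), all lost without RNAi libraries 1 and 2 and Col-0 library 1 (adjusted p up to 0.204). Proteins annotated as TRAF-like (62 genes, 42 with reads, 21 tested) had 2 lower, AT3G20380 (-0.62 (adjusted p = 0.0182)) and AT3G28220 (-0.63 (adjusted p = 0.0327)), with a median of -0.040, and both were lost without RNAi libraries 1 and 2 (adjusted p up to 0.111 and 0.118). Cysteine-rich receptor-like kinases (43 genes, 41 with reads, 21 tested, median -0.13) had 1 lower, CRK25 (-0.49 (adjusted p = 0.0209)), while EP1 was not called (-0.63 (adjusted p = 0.0673)). The call on CRK25 was lost without RNAi library 2 (adjusted p = 0.108) and Col-0 library 1 (adjusted p = 0.09). Of 33 tested genes of starch and sugar metabolism (34 genes, all with reads, median 0.029), the plastid beta-amylase gene CT-BMY rose from 7173, 7569 and 6952 to 9497, 10151 and 9492 counts (0.43 ± 0.06, adjusted p = 0.00851, lost without RNAi library 2 (adjusted p = 0.0804) and Col-0 library 1 (adjusted p = 0.0517)) and the hexose transporter gene STP4 fell (-0.34 (adjusted p = 0.0396), lost without RNAi library 1, 2 or 3 or Col-0 library 1, with adjusted p up to 0.219). Hormone and flowering lists moved little. Of 18 tested ethylene genes (21 genes, median 0.0062), EBP fell. Of 14 tested gibberellin genes (20 genes, median 0.018), GASA6 fell (-0.63 (adjusted p = 0.0226), lost without RNAi library 1 (adjusted p = 0.0924), RNAi library 2 (adjusted p = 0.125) and Col-0 library 1 (adjusted p = 0.096)), and of 11 tested cytokinin genes (15 genes, median -0.12) none was called. Of 11 tested flowering genes (21 genes, 20 with reads, median 0.038), RAV2, a repressor of flowering, rose (0.37 (adjusted p = 0.0351)). The call on RAV2 was lost without RNAi library 1 (adjusted p = 0.0898), RNAi library 2 (adjusted p = 0.193), RNAi library 3 (adjusted p = 0.0785) and Col-0 library 3 (adjusted p = 0.072). In all, 97 called genes belonged to a list and 316 to none.

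**Figure D5:**
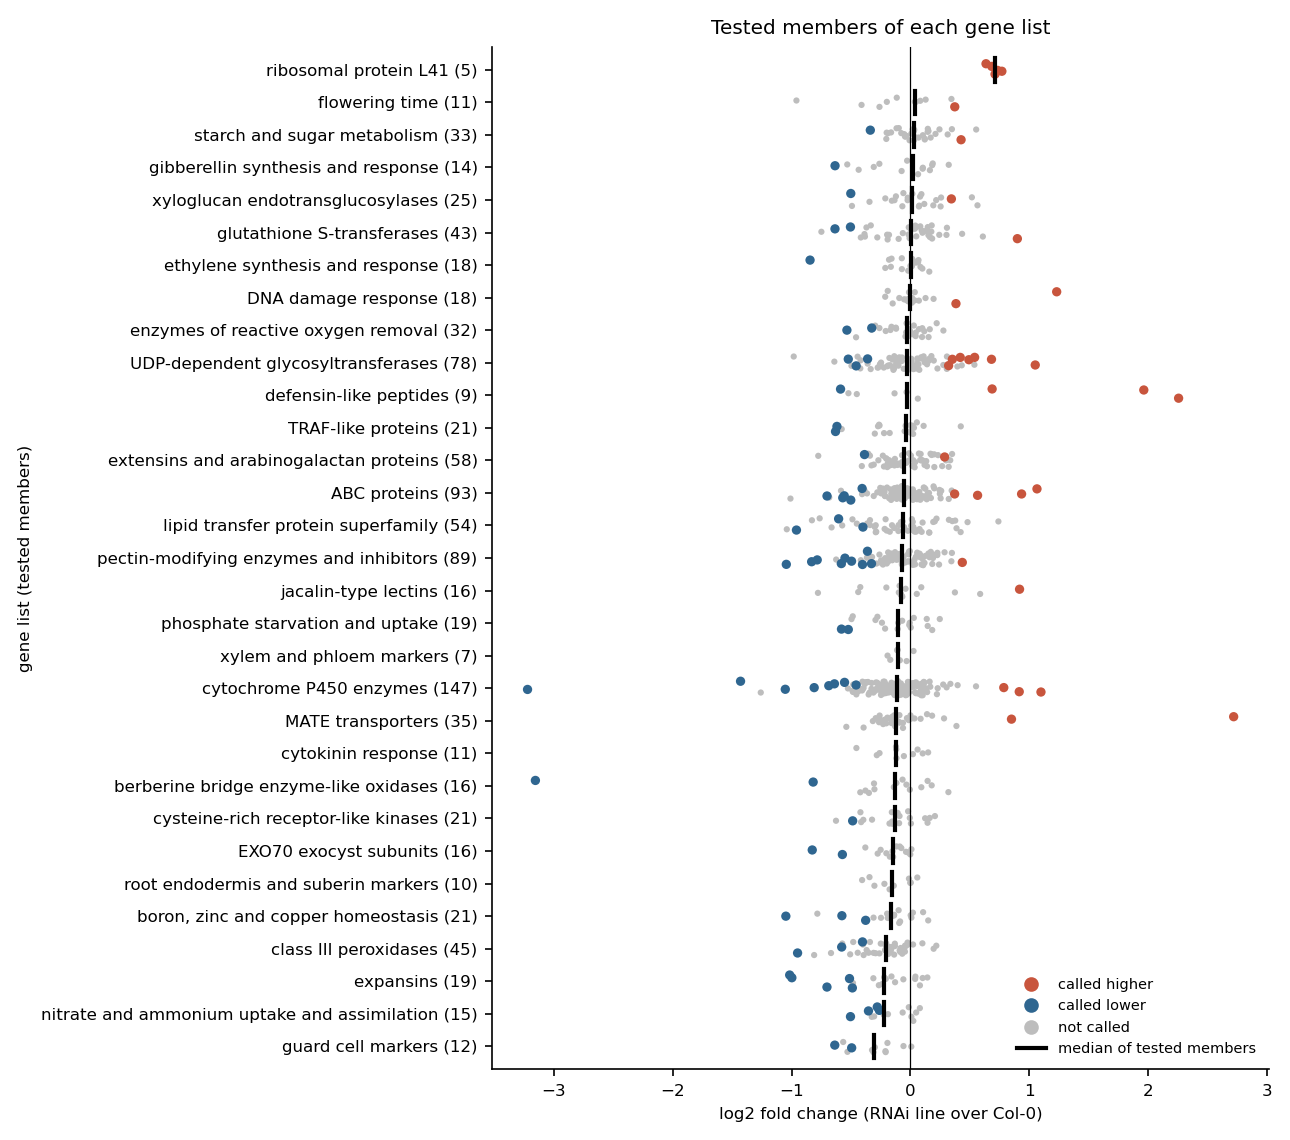
Log2 fold change (RNAi line over Col-0, horizontal axis) of every tested member of 31 gene lists, with the number of tested members in brackets, called members in colour and the median as a black bar. The medians run from -0.31 for guard cell markers to 0.71 for ribosomal protein L41, whose 5 members are all called higher, while expansins (median -0.22) have 5 members called lower.

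A few genes were listed at 0 in every library of 1 line. AT3G18535 (chr3:6375269-6377625), annotated as a tubulin-tyrosine ligase, had 187, 193 and 186 normalized counts in the RNAi line and 0 in each Col-0 library. That is at least 193-fold higher against a floor of 3 reads over the 3 Col-0 libraries. The 10 tested genes around it, 5 on each side, had log2 fold changes between -0.13 and 0.62 and no call. A transcript with no gene ID was at 36.0, 41.6 and 39.4 counts in the RNAi line, at least 39.97-fold higher. AT3G44006 (16.5, 26.7 and 15.3 counts, at least 20.02-fold higher) and AT3G28330, an F-box gene (5.84, 7.92 and 4.38 counts, at least 6.20-fold higher), were likewise at 0 in Col-0. In the other direction AT1G62225 had 8.15, 20.2 and 3.06 counts in Col-0 (at least 10.3-fold lower in the RNAi line), AT4G09875 had 7.25, 11.1 and 5.10 (at least 7.69-fold lower) and AT4G33720, of the CAP superfamily, had 5.43, 13.1 and 2.04 (at least 6.75-fold lower). AT3G18535 was chosen for its values of 0 and passed the filter of 50 counts through the RNAi libraries alone, so no p is given for it. All others were under that filter and have no test. The floors cover counting error only.

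Neighbouring genes that moved together were pairs. Among 17031 genes in chromosome order with a mean of at least 50 counts, 110 of those tested lay past 1.5-fold higher (0.649%) and 181 past 1.5-fold lower (1.07%), and 12 runs of 2 neighbours in the same direction were found, 7 higher and 5 lower, with none longer. Higher pairs were AT1G13608 with AT1G13609, AT1G47395 with AT1G47400, DTX1 with AT2G04050, AT2G30766 with CYP71A13, bHLH38 with bHLH39, LSU3 with LSU1, and AT3G62455 with AT3G62460. In the pair LSU3 (0.86 (adjusted p = 0.264)) and LSU1 (0.94 (adjusted p = 0.264)), genes of sulphur deficiency, the lines overlapped and neither was called. AT3G62460 rose (0.69 ± 0.09, adjusted p = 0.00455) and held without any library, while AT3G62455 beside it was not called (0.73 (adjusted p = 0.0522)). AT2G30766 rose, with a log2 fold change of 1.60 ± 0.24, adjusted p = 0.00913 (lost without RNAi library 2 (adjusted p = 0.0725)). Its annotated interval overlaps that of CYP71A13, so that reads of this pair may be shared too. Lower pairs were GSTF7 with GSTF6, FMO GS-OX2 with FMO GS-OX3, EARLI1 with AT4G12490, AT4G12545 with AIR1, and AT4G15390 with CYP702A5. In these, GSTF6 (-0.75 (adjusted p = 0.0987)), FMO GS-OX2 (-0.61 (adjusted p = 0.0932)), EARLI1 (-0.66 (adjusted p = 0.0651)), AT4G12545 (-0.76 (adjusted p = 0.11)) and AIR1 (-0.94 (adjusted p = 0.0932)) were not called, while FMO GS-OX3, a glucosinolate-modifying monooxygenase gene, fell (-0.59 ± 0.07, adjusted p = 0.00395) and held without any library. Most of these pairs are related genes, whose reads may be shared.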

How the data were processed

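Values of 6 poly(A) RNA-seq libraries were analysed, 3 for each line, grouped by the genotype in the labels. For this comparison the authors deposited 1 mean per line and transcript, a signal value made by dividing gene counts by the size factor of the library and averaging the libraries of a line. According to the submitters' processing notes, alignment to TAIR10 used TopHat2 2.0.12 with Bowtie2 2.2.3, counting used HTSeq 0.6.1, and DESeq 1.18.0 followed. The methods of the study name other tools, so that the aligner is not settled. Whether reads were counted by strand is not given in the sources used here. Columns with the authors' log2 fold changes, p-values, adjusted p-values and calls were not used, nor were the tables of the other lines.

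The 3 size factors of a line were found from the steps between low means, and each mean was solved for the 1 set of 3 whole reads that gives it. For all but low means, only reads within set multiples of the mean were searched. The set is the only one within those bounds, and a wider spread between libraries would be missed. All 23982 means below 10000 in the RNAi line and 24077 of 24078 in Col-0 were solved, with 109 of 215 and 125 of 208 at or above 10000. Size factors recomputed from the recovered reads of 21493 genes differed from the steps by at most 0.039%. The 107 transcripts without reads of all 6 libraries were not tested. Simulated data were also run through the solving and the test, with outcomes not given here. For the test they had the same dispersion at every gene and no library order shared between genes. They therefore cannot speak to the order of the Col-0 libraries among the rises. The recovered libraries carry no replicate number. The design written at the start took the means to have no spread and planned no test. As reads could be recovered, limma 3.58.1 (R 4.3.3; trend, 4 residual degrees of freedom) was run in its place on log2(normalized count + 1) for transcripts with a mean of at least 50 over both lines, with Benjamini-Hochberg adjustment and a threshold of 0.05. Fold changes are on that scale.

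The members and lists were chosen with earlier results of these data known. There are 32 lists, 14 by gene ID and 18 families by a pattern in the annotation, less genes that share only a symbol or a superfamily name with the family. Of all lists, the root tip markers alone had no tested member. The rule for named genes took AtDOA10A and AtDOA10B, the 12 largest rises and 12 largest falls (annotated genes, mean 1000 or more), the 8 of each from 200 to 1000, up to 4 members of each list with the largest change among those past 1.5-fold, genes listed at 0 in 1 line with a mean of at least 5 in the other, and genes in neighbouring runs. Other called list members and the ribosomal RNA gene AT3G41979 are named after their values were seen. Coordinates are those of the TAIR10.1 reference. Alternatives were other pseudocounts (0.1 and 5), minimum means of 10 and 200 or none, libraries scaled to the same sum, centring, only transcripts with a gene ID, voom weights and leaving out each library.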

Additional observations from a re-analysis of the deposited data

How the results depend on the processing

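Past 1.5-fold, 110 genes were higher and 181 lower, and the filter on low values set these counts: with a minimum mean of 10 they were 276 and 434, with 200 they were 63 and 68, and with no filter 1115 and 1344. Past 2-fold, 34 genes were higher and 29 lower, with a minimum of 10 they were 71 and 84, with 200 they were 19 and 11, and with no filter 343 and 380. Leaving out 1 library gave 112 to 166 higher and 177 to 272 lower past 1.5-fold and 29 to 53 higher and 22 to 53 lower past 2-fold. The limma calls ran from 33 to 273 higher and from 36 to 275 lower over these fits, which use 5 libraries, and from 172 to 226 higher and 173 to 264 lower over the other alternatives. Scaling the libraries to the same sum moved the median of all tested genes to -0.020 and the calls to 175 higher and 264 lower, with 39.9% of calls higher in place of 48.7%. Over the named genes, 1370 of 1381 values under these other alternatives kept direction and side of the threshold, 8 lost a call, 3 gained 1 and none reversed. Over the leave-one-out fits 636 of 942 kept both, 293 lost a call and 12 gained 1. The lectin gene AT1G52060, not called (log2 fold change -0.42), reversed to 0.16 without Col-0 library 2, and its leave-one-out values ran from -0.77 to 0.16. The medians of 12 lists, none farther from 0 than 0.077, changed sign under 1 or more alternatives, among them defensin-like peptides (-0.032, and 0.15 at a minimum mean of 10), flowering (-0.070 at a minimum mean of 10), xyloglucan endotransglucosylases (-0.090 without Col-0 library 3), jacalin-type lectins (0.074 without Col-0 library 2) and ethylene (-0.073 without Col-0 library 2). No paired analysis was possible because the recovered libraries carry no replicate number. Depth limits genes under 50 counts, which were not tested.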

Other observations

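Some called genes outside the lists were chosen after their values were seen. Among them were 3 GH3 genes, whose products join auxin to amino acids. No list of GH3 genes was drawn up, so members without a call were not counted. Of all tested genes, 1.19% were called higher. GH3.3 had 320.0, 331 and 330.4 normalized counts in the RNAi line and 190.2, 166 and 225 in Col-0 (0.76 ± 0.11, adjusted p = 0.00913), DFL1 had 740.2, 774 and 699 against 527, 551 and 525 (0.46 ± 0.07, adjusted p = 0.00845) and WES1 had 499, 523 and 468 against 418, 359 and 343 (0.41 ± 0.09, adjusted p = 0.0451). The lines were apart at each, all 3 calls were lost without RNAi library 2 (adjusted p = 0.0704, 0.0704 and 0.228), and that of WES1 was also lost without all other libraries but Col-0 library 1. FAD2, the oleate desaturase of the endoplasmic reticulum, fell from 7957, 8084 and 8189 to 5738, 5635 and 6024 counts (-0.48 ± 0.06, adjusted p = 0.00371) and held without any library.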
